A study of Capra hircus with 24 samples.

Results

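The genes described here are 42 genes of BMP, activin and TGF-beta signalling, chosen by their symbols as ligands, receptors, SMAD proteins, secreted antagonists and latent TGF-beta binding proteins. They were followed in dermal papilla cells of cashmere goats, in 24 RNA-seq libraries. A gene was kept where its value was 1 or more in at least 3 libraries, which 39 of the 42 genes did, beside 13049 of all 20326 genes listed. BMP6 reached 1 in 1 library, with a highest value of 1.15, and BMP7 had a highest value of 0.19, so neither was tested, and CHRDL1 was not analysed here. The 39 genes were 7 of 9 ligands, 12 of 12 receptors and co-receptors, 10 of 10 SMAD proteins and the ubiquitin ligases that act on them, 6 of 7 secreted antagonists and 4 of 4 latent TGF-beta binding proteins. NOG, BMP2, BMPR1B and CHRD were at the low end of this range, with a value of 1 or more in 20, 15, 13 and 13 libraries.

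The series holds 8 groups of 3 libraries, as follicle type, month and sex combine. Papilla cells came from secondary hair follicles, which make the fine cashmere, or from primary follicles, which make the coarse guard hair, of female or male goats, in June (called early anagen in the labels) or in October (called anagen). The labels name no treatment, genotype or age, and no group is an untreated control for another. They number the libraries of a group as biological replicates 1 to 3 without saying whether these were separate animals, pooled animals or separate cultures, so a p-value reflects no more than how far these libraries scatter, which may be technical. Values are a normalised expression signal whose totals are nearly the same in all libraries. Since scaling by transcript length is not stated, levels are compared within a gene and never between genes.

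Libraries of 1 group correlated at 0.993 to 0.997 and libraries of different groups at 0.954 to 0.992 (Pearson's r across genes, as a description). Of the papilla markers, VCAN (206 to 541), RSPO3 (134 to 283) and LEF1 (8.06 to 14.7) were present in all libraries. So were WIF1, TRPS1, FGF7 and FGF10, whereas CORIN, PROM1 and HHIP were below 1 in all libraries. ALPL lay at 0.0 to 2.44 (median 0.16), SOX18 at 0.23 to 1.25 (median 0.49) and CRABP1 at 0.24 to 11.37. SOX2, a papilla transcription factor, had group means of 0.26 in secondary June females, 0.26 in secondary June males and 0.33 in secondary October females, and of 12.4 to 15.9 in the other groups. Keratinocyte and hair matrix markers (10 of 14 tested) summed to 299 to 327 per library in secondary October females, to 68.4 to 75.7 in primary October males and to 43.8 or less elsewhere, and the part of such cells in the results was not tested. In bulk samples, fewer cells of a type and less RNA per cell cannot be told apart.

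BMPs, activins and TGF-betas are secreted dimers that bring type I and type II receptor kinases together. The type I receptor then phosphorylates receptor SMADs, which enter the nucleus with SMAD4. BMP receptors act mainly through SMAD1, SMAD5 and SMAD9, and activin and TGF-beta receptors mainly through SMAD2 and SMAD3, while SMAD6 and SMAD7 inhibit the cascade. Antagonists such as noggin, gremlin and follistatin bind the ligands outside the cell, and latent TGF-beta binding proteins hold TGF-beta in the matrix in an inactive form. In the hair follicle, BMPs are known for keeping stem cells at rest and for supporting papilla identity, noggin for opposing BMPs at the onset of growth, and TGF-beta2 as a papilla signal around the start and the end of growth.

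Averaged over the sexes, 8 of 12 receptors and 4 of 4 latent TGF-beta binding proteins were lower in secondary than in primary June cells. LTBP2 went the opposite way in males. Of the 6 secreted antagonists tested, GREM1, CHRD and FSTL3 were higher in secondary June cells, FST and FSTL1 lower, and NOG not called. Of the 39 genes, 21 were lower and 11 higher (adjusted p under 0.05, limma with Benjamini-Hochberg adjustment over 13049 genes), beside 30.3% of all genes lower and 31.6% higher. Their median difference was -0.17 on the log2(value + 1) scale, the scale of all differences given here, which understates those of weakly expressed genes, against 0.004 over all genes. In October 12 were lower and 13 higher, beside 14.1% and 17.5% of all genes, with a median of 0.04 against 0.000. From June to October, secondary cells had 15 of the 39 genes higher and 15 lower, beside 29.0% and 33.9% of all genes. Primary cells had 6 higher and 23 lower, beside 28.6% and 32.3% of all genes, with a median of -0.21 against -0.004. Much of the genome differed in each comparison, so the counts of these genes are read against those shares. Among the 31 of the 39 genes with a mean of at least 10, 58.1% were lower and 25.8% higher in secondary June cells. The 8246 genes at that level had 30.7% and 33.5%. In October 32.3% were lower and 29.0% higher in secondary than in primary cells, beside 13.1% and 19.1%. From June to October primary cells had 58.1% lower and 16.1% higher, beside 32.5% and 31.4%. Secondary cells had 38.7% lower and 48.4% higher, beside 32.4% and 32.2%.

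**Figure D1:**
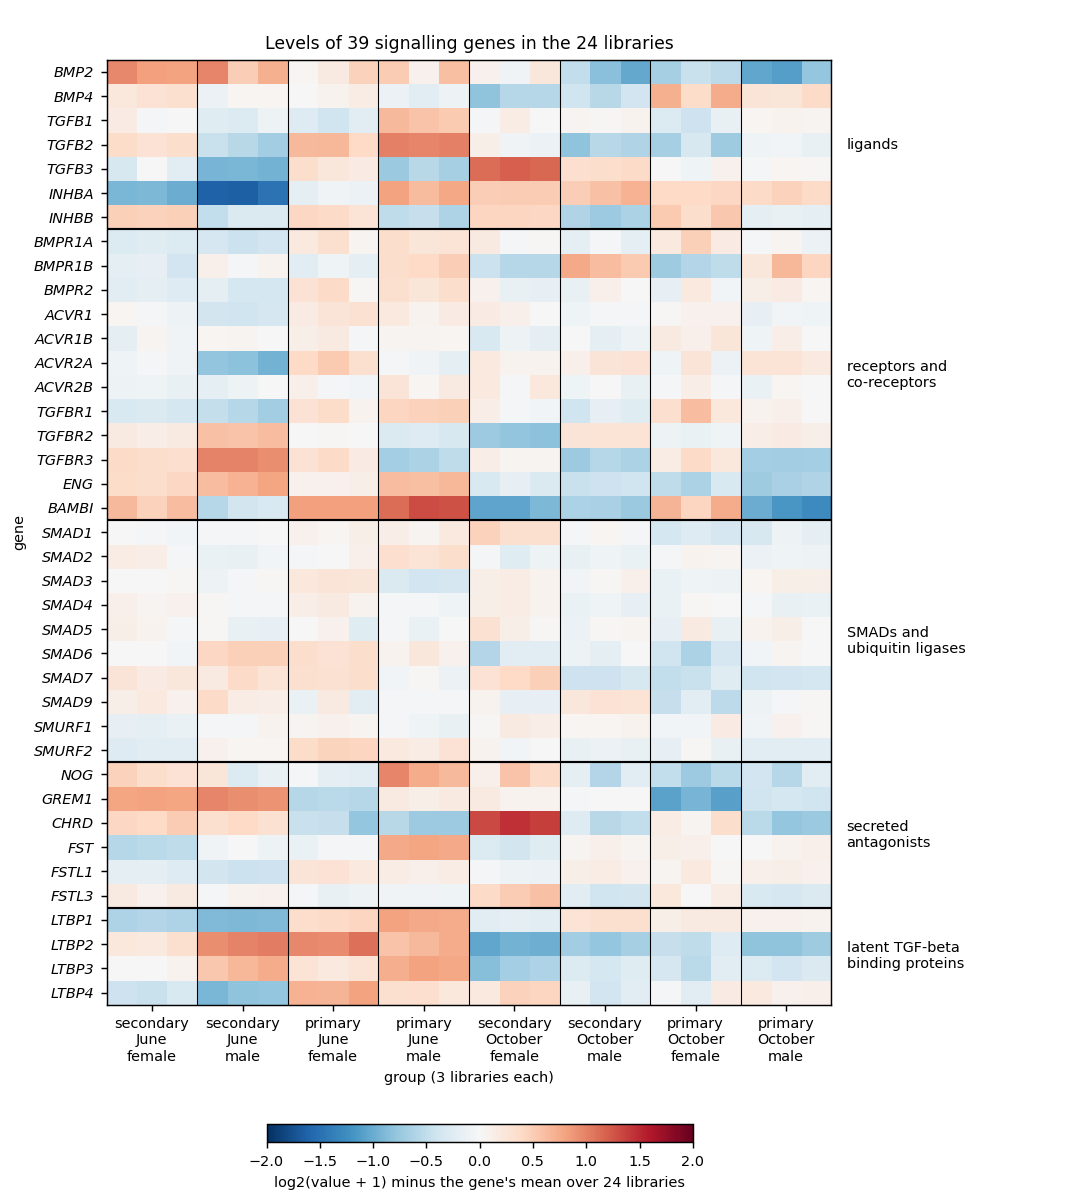
Levels of the 39 tested genes (rows, by role) in the 24 libraries (columns, 3 per group), as log2(value + 1) minus the gene's mean over all libraries, from blue (lower) to red (higher). INHBA, LTBP1 and LTBP4 are blue in both secondary June groups, and BMP2, ENG, LTBP2 and LTBP3 are redder in June than in October.

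The difference between follicle types changed with the month for 26 of the 39 genes. Taking the secondary-minus-primary difference in October minus that in June as the interaction, 20 were higher and 6 lower, beside 23.3% and 22.9% of all genes, with a median of 0.22 against 0.001. By role, 4 of 7 ligands, 8 of 12 receptors, 3 of 10 SMAD proteins and ligases, 3 of 6 antagonists and 2 of 4 latent binding proteins had a positive interaction. Primary June males had the highest group mean for 13 of the 39 genes and secondary June males the lowest for 11, as a description. The same count over all genes was not made, and in June males the follicle types differed for 59.6% of all genes. Making library totals equal shifted that June male difference by a median of 0.086 over all genes. These numbers are therefore not read as a trait of the 39 genes.

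Those comparisons take the 3 libraries of a group as replicates. With the 8 group means as single samples, the sexes were the replicates for follicle type, month and interaction. The sexes were compared in a second fit with a sex term, where the combinations of follicle type and month were the replicates. Here limma called LTBP1 (adjusted p = 0.0332) and BMPR2 (adjusted p = 0.0338) in June. None of the 39 genes was called in October, between months in either follicle type, in the interaction or between sexes. At an unadjusted p under 0.05 in these fits, the numbers of the 39 genes were 11 in June (all genes 19.5%) and 3 in October (2.25%). Between months they were 12 in secondary cells (19.3%) and 9 in primary cells (17.4%). The interaction had 7 (7.79%) and the sexes 7 (11.3%). Over all genes these fits called 310 in June, 0 in October, 1 and 0 between months, 1 in the interaction and 10 between sexes.

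INHBA (NCBI gene 100860960), which encodes the subunit of activin A, had its lowest levels in secondary June cells. In June its values were 104, 106 and 98.9 in secondary females, 63.5, 62.8 and 70.2 in secondary males, 172, 189 and 182 in primary females, and 346, 308 and 339.9 in primary males. October values were 278, 280.4 and 280.5 in secondary females, 279, 297 and 319 in secondary males, 259.8, 260.1 and 262 in primary females, and 257, 274 and 257 in primary males. Every secondary June library was thus below every other library, and the October groups lay close together. The difference between follicle types was -1.56 (SE 0.0378, adjusted p = 1.38e-19) in June and 0.14 (adjusted p = 0.00578) in October, and the second was not called once library totals were made equal (0.10, adjusted p = 0.0505). In secondary cells INHBA rose by 1.80 from June to October (SE 0.0378, adjusted p = 1.04e-20). Primary cells differed by 0.10 between months (adjusted p = 0.0311), an average of 0.53 in females and -0.33 in males. Without primary June female 1, primary June male 2 or primary October male 2 this average was not called (0.08, 0.07 and 0.08, adjusted p = 0.0906, 0.111 and 0.0856).

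INHBB, the subunit of activin B, followed sex. All female libraries lay at 38.5 to 46.6 and all male ones at 18.8 to 28.4, a difference of -0.86 for males (adjusted p = 1.85e-16). Between follicle types it differed by 0.14 in June and -0.26 in October.

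Among the TGF-beta ligands, TGFB2 (NCBI gene 100861228) was highest in primary June cells. Its June values were 35.8, 33.9 and 35.5 in secondary females, 19.8, 18.4 and 16.6 in secondary males, 43.6, 44.1 and 36.3 in primary females, and 56.2, 55.2 and 56.1 in primary males. In October it had 30.0, 26.2 and 25.4 in secondary females, 15.3, 18.4 and 17.7 in secondary males, 16.9, 21.9 and 16.4 in primary females, and 26.0, 26.3 and 24.6 in primary males. Secondary and primary libraries did not overlap in June but did in October. The June difference was -0.90 (SE 0.0659, adjusted p = 5.61e-11), and the fall of primary cells from June to October was -1.11 (SE 0.0659, adjusted p = 1.61e-12). In October the average of -0.00 (adjusted p = 0.974) combined 0.55 in females with -0.56 in males, both called.

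TGFB3 (NCBI gene 102189962) was highest in secondary October females. In June it had 11.4, 14.4 and 12.4 in secondary females, 7.11, 7.19 and 7.05 in secondary males, 18.7, 17.0 and 16.3 in primary females, and 8.25, 9.49 and 8.74 in primary males. October values were 32.5, 34.3 and 33.2 in secondary females, 18.5, 18.7 and 19.2 in secondary males, 14.5, 13.5 and 15.4 in primary females, and 14.1, 14.9 and 14.7 in primary males. Secondary cells thus lay below primary cells of the same sex in June and above them in October. The differences were -0.35 (SE 0.0487, adjusted p = 1.93e-06) in June and 0.75 (adjusted p = 2.85e-11) in October, and TGFB3 rose by 1.31 from June to October in secondary cells (adjusted p = 3.07e-16). Secondary October females are also the group with the highest keratinocyte markers, whose part in this level was not tested. In males the October difference was 0.35, and the part of such cells in it was not tested either.

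TGFB1, the most widely expressed TGF-beta, stood at 109 ± 4.74 (SD, n = 3) in primary June males and at 59.0 to 75.3 as a group mean elsewhere. Its June difference between follicle types was 0.33 in females and -0.79 in males.

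BMP4 (NCBI gene 100860789), a BMP of the papilla itself, hardly separated the follicle types in June and separated them fully in October. June values were 97.7, 103 and 105 in secondary females, 77.5, 86.1 and 86.7 in secondary males, 84.8, 88.2 and 93.4 in primary females, and 77.8, 72.5 and 78.8 in primary males. In October they were 47.8, 56.1 and 56.3 in secondary females, 64.0, 57.3 and 64.1 in secondary males, 138, 109 and 142 in primary females, and 101, 99.6 and 109.7 in primary males. All 6 secondary October libraries lay below all 18 others, and primary October females held the highest values. The difference was 0.16 (adjusted p = 0.0183) in June and -0.998 (SE 0.0576, adjusted p = 3.66e-12) in October. From June to October BMP4 fell by 0.68 in secondary cells (adjusted p = 7.44e-10) and rose by 0.48 in primary cells (adjusted p = 1.92e-07), in both sexes of each.

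BMP2 (NCBI gene 100860831) was weakly expressed and higher in June. Its June values were 4.31, 3.80 and 3.76 in secondary females, 4.36, 2.81 and 3.44 in secondary males, 1.80, 2.06 and 2.73 in primary females, and 2.84, 1.88 and 3.11 in primary males. October values were 1.89, 1.59 and 2.19 in secondary females, 0.92, 0.52 and 0.34 in secondary males, 0.71, 0.99 and 0.89 in primary females, and 0.32, 0.26 and 0.59 in primary males. Within each follicle type no October library reached a June one. BMP2 fell by 1.15 in secondary cells (SE 0.107, adjusted p = 3.39e-09) and by 1.07 in primary cells (adjusted p = 1.23e-08). Secondary cells were higher than primary cells by 0.49 in June (adjusted p = 0.000431) and by 0.41 in October (adjusted p = 0.00477), with overlap between males in both months.

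**Figure D2:**
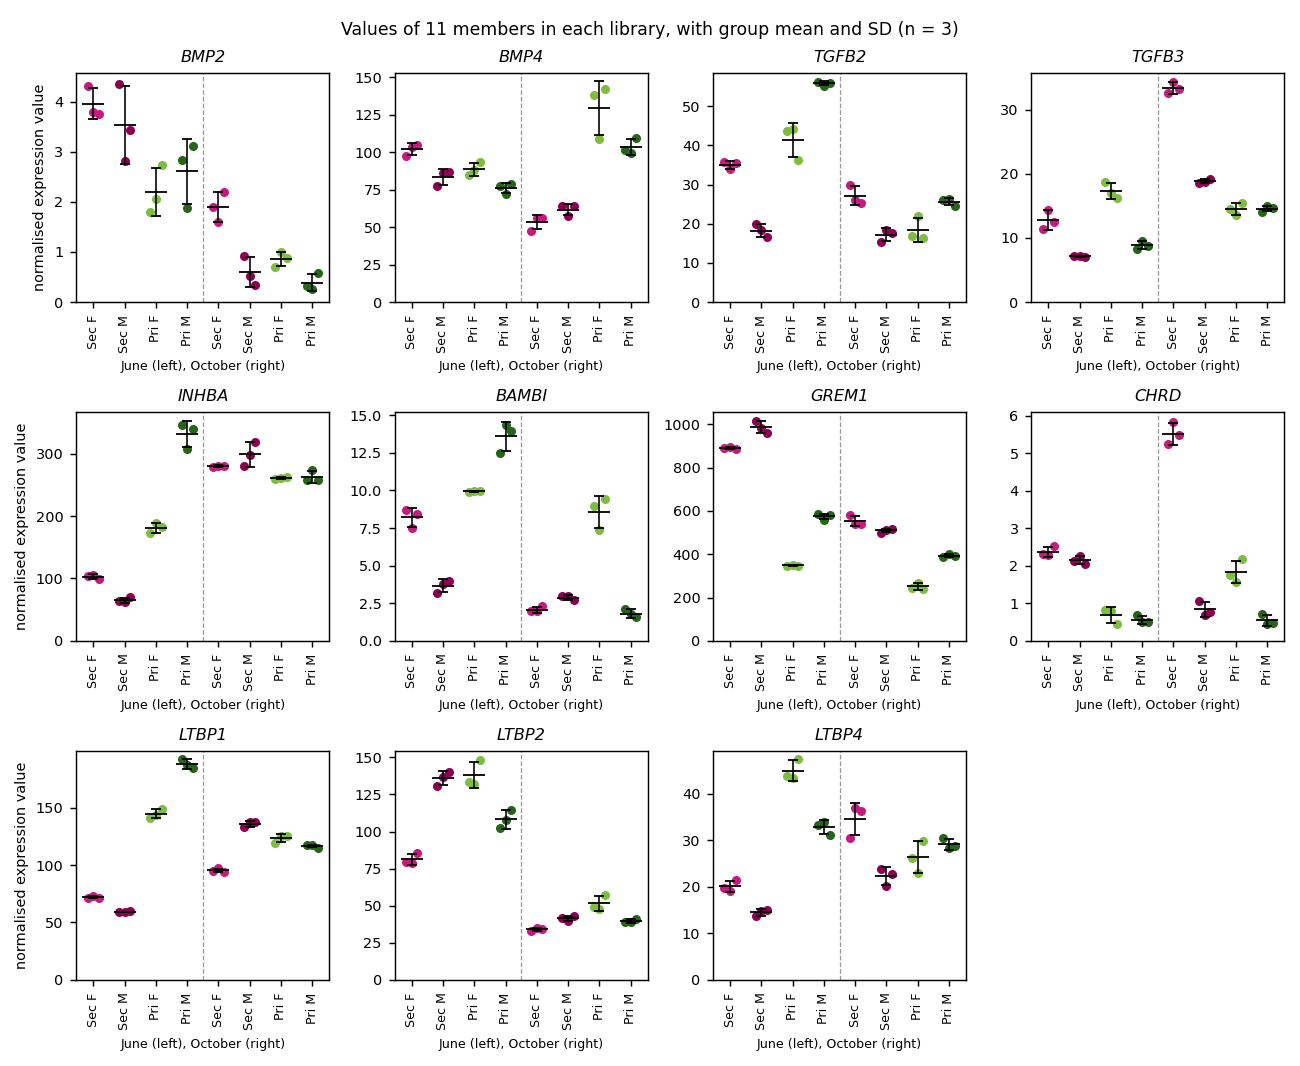
Normalised expression values of the 11 genes described library by library, with 4 groups per month (Sec, secondary; Pri, primary; F, female; M, male). Points are the 3 libraries of a group, bars the group mean and SD, and every vertical axis starts at 0. BMP4 and GREM1 separate secondary from primary cells in October, and LTBP2 separates June from October.

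Of the 12 receptors and co-receptors, 8 were lower and 3 higher in secondary June cells (all genes 30.3% and 31.6%). The type I receptors BMPR1A, ACVR1 and TGFBR1 and the type II receptors BMPR2 and ACVR2A were lower in both sexes, with averages of -0.56, -0.39, -0.79, -0.53 and -0.62. TGFBR1, the type I receptor of TGF-beta, had June means of 30.6 ± 0.660 in secondary females, 25.3 ± 1.91 in secondary males, 45.3 ± 4.77 in primary females and 52.8 ± 0.731 in primary males (SD, n = 3). In October the same receptors differed by -0.16, 0.04, -0.35, -0.10 and 0.04, of which TGFBR1 was called at an adjusted p of 0.000113. The value of BMPR1A (adjusted p = 0.0278) had an adjusted p of 0.055 with no filter on low genes, 0.0717 with the compared groups alone, and 0.0574 to 0.0844 without secondary October female 2 or 3, secondary October male 1 or 3, primary October female 2 or primary October male 2. BMPR1B, a type I BMP receptor at 0.32 to 2.64, was higher in males by 0.77 over all groups. Apart from primary June female 2 (1.04), only male libraries reached 1. BMPR1B thus passed the filter through males, and this sex difference is a description. ACVR1B, an activin type I receptor, and ACVR2B, an activin type II receptor, lay at 3.94 to 6.24 and 2.62 to 3.96 and differed by 0.25 or less in any of the 4 averages.

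TGFBR2, the type II receptor of TGF-beta, went the other way from TGFBR1 in June. It had 91.3 ± 1.84 in secondary females, 123 ± 1.75 in secondary males, 82.2 ± 0.960 in primary females and 66.6 ± 1.12 in primary males, a difference of 0.51 (adjusted p = 2.72e-14). In October it was lowest in secondary females, at 47.3 ± 1.65, and the differences were -0.66 in females and 0.14 in males, the latter not called once library totals were made equal. TGFBR3, a co-receptor that presents TGF-beta2 and binds inhibin, stood apart in secondary June males at 66.1 ± 1.70 against 21.4 ± 1.40 in primary June males, while females had 42.7 ± 0.641 and 40.6 ± 3.14 (SD, n = 3 each). Its June difference was 1.59 in males and 0.07 in females (adjusted p of the sex difference 2.15e-12).

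ENG, a TGF-beta and BMP co-receptor best known from blood vessels, lay at 119 to 193 in all June libraries and at 68.1 to 99.4 in all October ones. It fell by 0.88 in secondary and by 0.93 in primary cells (adjusted p = 3.65e-14 and 1.82e-14). Of 7 endothelial markers, CDH5, KDR, VWF, TEK, CLDN5 and ESAM were below 1 in all libraries. The remaining one, PECAM1, had a group mean of 2.00 in secondary June males, the group highest in ENG, and of 0.35 in secondary June females. It was 0.19 in primary June males, where ENG averaged 172.5. In primary June females, where ENG averaged 120, and in all October groups PECAM1 was 0.03 or less. The 7 markers summed to 2.50 to 2.86 per library in secondary June males and to 0.38 to 1.28 elsewhere, and the part of such cells in the level of ENG was not tested.

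BAMBI (NCBI gene 102191347), a decoy receptor without a kinase domain that inhibits signalling, had opposite differences between follicle types in the sexes in October. June values were 8.69, 7.49 and 8.46 in secondary females, 3.18, 3.80 and 4.01 in secondary males, 9.89, 9.98 and 9.95 in primary females, and 12.5, 14.3 and 14.0 in primary males. October values were 1.97, 1.97 and 2.31 in secondary females, 2.98, 2.96 and 2.69 in secondary males, 8.97, 7.37 and 9.42 in primary females, and 2.12, 1.77 and 1.57 in primary males. Primary October females stood at 7.37 or more, and all other October libraries at 2.98 or less. The October difference was -1.63 in females and 0.46 in males, and the sex difference of 2.10 had an adjusted p of 1.6e-11. From June to October BAMBI fell by 2.37 in primary males and by 1.58 in secondary females, and differed by -0.20 in primary females (adjusted p = 0.077).

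Of the 10 SMAD proteins and ubiquitin ligases, 2 were higher and 3 lower in secondary June cells, at or below the shares of all genes (31.6% and 30.3%), and 4 were higher and 0 lower in secondary October cells (17.5% and 14.1%). The common partner SMAD4 and the BMP mediator SMAD5 kept within 30.0 to 38.1 and 23.6 to 34.8 over all 24 libraries, with averages between follicle types of -0.01 and 0.03 in June and 0.06 and 0.06 in October. SMAD1, also a BMP mediator, was highest in secondary October females at 30.7 ± 1.85 against 18.8 ± 0.680 in primary October females (SD, n = 3), and the October average was 0.44 (adjusted p = 6.05e-09). SMAD3, a TGF-beta and activin mediator, had called differences of opposite sign in the sexes in June, -0.22 in females and 0.30 in males, around an average of 0.04 (adjusted p = 0.362). The other mediator of that branch, SMAD2, stood at 55.0 ± 1.61 in primary June males and at 40.1 to 46.4 as a group mean elsewhere. SMAD9, the remaining BMP mediator, lay higher in secondary cells by 0.22 in June (adjusted p = 0.00692) and by 0.31 in October (adjusted p = 0.000973).

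Averages of both inhibitory SMADs were lower in October. SMAD6 fell by 0.43 in secondary and 0.45 in primary cells (adjusted p = 1.33e-06 and 7.04e-07). SMAD7 fell by 0.25 and 0.53 (adjusted p = 9.47e-05 and 2.3e-09), although secondary females went from 15.5 ± 0.516 in June to 17.6 ± 1.19 in October while secondary males went from 16.3 ± 1.21 to 9.88 ± 0.450 (SD, n = 3). In October SMAD7 was higher in secondary than in primary cells by 0.39 (adjusted p = 8.47e-07), with 0.78 in females and -0.01 in males. SMURF2, a ubiquitin ligase for SMADs and receptors, was lower in secondary June cells by 0.41 (adjusted p = 5.72e-10), and its relative SMURF1 differed by -0.07. From June to October 7 of the 10 fell and 0 rose in primary cells (all genes 32.3% and 28.6%), and 3 fell and 3 rose in secondary cells (33.9% and 29.0%).

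GREM1 (NCBI gene 100860969), which encodes the BMP antagonist gremlin 1, was higher in secondary cells in both months and both sexes. In June it had 889, 895 and 886 in secondary females, 1017, 984 and 959.6 in secondary males, 347, 353 and 346 in primary females, and 584, 559.9 and 581 in primary males. October values were 581, 541 and 539 in secondary females, 499.8, 514 and 516 in secondary males, 244, 269.8 and 242 in primary females, and 389, 402 and 391 in primary males. No primary library reached a secondary one of its month. The difference was 1.06 in June (SE 0.0287, adjusted p = 8.62e-19) and 0.75 in October (adjusted p = 2.94e-15), and from June to October GREM1 fell by 0.82 in secondary and by 0.51 in primary cells (adjusted p = 1.03e-16 and 7.89e-13).

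CHRD (NCBI gene 102181631), for the BMP antagonist chordin, was weakly expressed. Its June values were 2.31, 2.29 and 2.53 in secondary females, 2.12, 2.27 and 2.06 in secondary males, 0.82, 0.80 and 0.46 in primary females, and 0.69, 0.51 and 0.50 in primary males. In October it had 5.23, 5.82 and 5.48 in secondary females, 1.07, 0.70 and 0.77 in secondary males, 1.75, 1.58 and 2.17 in primary females, and 0.71, 0.45 and 0.49 in primary males. All secondary June libraries were above all primary June ones, and secondary October females, the group with the highest keratinocyte markers, were above all others. The difference was 1.01 in June (SE 0.0708, adjusted p = 2.53e-11) and 0.73 in October (adjusted p = 2.41e-08), the latter with 1.21 in females and 0.25 in males (adjusted p = 0.0869). Between months in secondary cells CHRD rose by 0.95 in females and fell by 0.78 in males, around an average of 0.09 (adjusted p = 0.3).

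Noggin, encoded by NOG, peaked in primary June males at 3.94 ± 0.591 and was lowest in primary October females at 0.913 ± 0.163 (SD, n = 3). Its June difference between follicle types was 0.50 for females and -0.84 for males. The average of -0.17 was not called (adjusted p = 0.147), except without secondary June male 1 (-0.24, adjusted p = 0.0319). Between June and October NOG fell by 0.81 in primary cells (adjusted p = 2.99e-07). FST, for the activin antagonist follistatin, was likewise highest in primary June males, at 198 ± 2.72 against group means of 79.4 to 122 elsewhere. Its June difference between follicle types was -0.65 (adjusted p = 1.85e-14). FSTL1, a follistatin-like glycoprotein of the matrix, ranged from 921 to 1510 over all libraries and differed by -0.49 in June (adjusted p = 1.15e-12). FSTL3, which binds activins, was highest in secondary October females at 159 ± 11.1 and lowest in secondary October males at 89.5 ± 6.10.

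Averaged over the sexes, all 4 latent TGF-beta binding proteins were lower in secondary June cells (all genes 30.3%), with LTBP1 and LTBP4 lower in both sexes. LTBP2 was lower in females (-0.76) and higher in males (0.33), and LTBP3 was lower in females (-0.23) and overlapped between follicle types in males (-0.12). LTBP1 (NCBI gene 102190794), which ties latent TGF-beta to the matrix, had June values of 71.6, 73.3 and 71.5 in secondary females, 59.1, 58.8 and 59.6 in secondary males, 142, 143 and 149 in primary females, and 193, 187 and 184 in primary males. October values were 94.5, 97.3 and 94.4 in secondary females, 133, 137 and 138 in secondary males, 119, 126 and 125 in primary females, and 117, 118 and 115 in primary males. Secondary June libraries were the lowest of all, and in October secondary cells lay below primary ones in females and above them in males. The June difference was -1.32 (SE 0.0245, adjusted p = 1.65e-21). Between June and October LTBP1 rose by 0.79 in secondary and fell by 0.46 in primary cells (adjusted p = 9.16e-18 and 2.72e-13). Its October differences were -0.37 in females and 0.22 in males.

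LTBP4 (NCBI gene 102188621), a matrix protein of elastic fibres that binds latent TGF-beta1, was also lowest in secondary June cells, but differed between follicle types in October with the opposite signs to LTBP1 in each sex. In June it had 19.7, 19.2 and 21.5 in secondary females, 13.6, 14.8 and 15.1 in secondary males, 43.8, 43.5 and 47.6 in primary females, and 33.4, 33.9 and 31.1 in primary males. In October it had 30.6, 37.0 and 36.2 in secondary females, 24.0, 20.2 and 22.7 in secondary males, 26.2, 23.0 and 29.9 in primary females, and 30.6, 28.3 and 28.7 in primary males. Follicle types were apart in June and mixed in October. The June difference of -1.12 (SE 0.0584, adjusted p = 1.13e-13) was -1.12 in each sex, and the October average of 0.00 (adjusted p = 0.983) combined 0.38 in females with -0.38 in males, both called.

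LTBP2 (NCBI gene 102183880), a family member of elastic fibres that does not bind latent TGF-beta, separated the months. June values were 79.4, 78.6 and 85.5 in secondary females, 131, 137 and 140.2 in secondary males, 134, 132 and 149 in primary females, and 102, 108 and 115 in primary males. In October they were 32.7, 35.1 and 34.3 in secondary females, 41.95, 39.6 and 42.9 in secondary males, 49.4, 48.0 and 57.3 in primary females, and 38.7, 38.9 and 41.3 in primary males. Every October library was below every June library. LTBP2 fell by 1.46 in secondary cells (SE 0.0440, adjusted p = 6.33e-18) and by 1.42 in primary cells (adjusted p = 1.51e-17). LTBP3, which binds all TGF-beta isoforms in their latent form, fell by 0.83 and 0.85 (adjusted p = 1.03e-12 and 1.07e-12), from 51.7 to 91.4 over the June libraries to 28.5 to 44.7 over the October ones.

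Differences varied between the sexes in size and, for some genes, in sign. Over all groups 11 of the 39 genes were higher and 17 lower in males, beside 25.5% and 24.5% of all genes. The 11 include BMPR1B, which passed the filter through male libraries. The difference between follicle types itself differed between the sexes for 20 of the 39 genes in June (all genes 41.2%) and 20 in October (26.7%), and the difference between months for 22 in secondary cells (37.7%) and 23 in primary cells (36.8%).

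**Figure D3:**
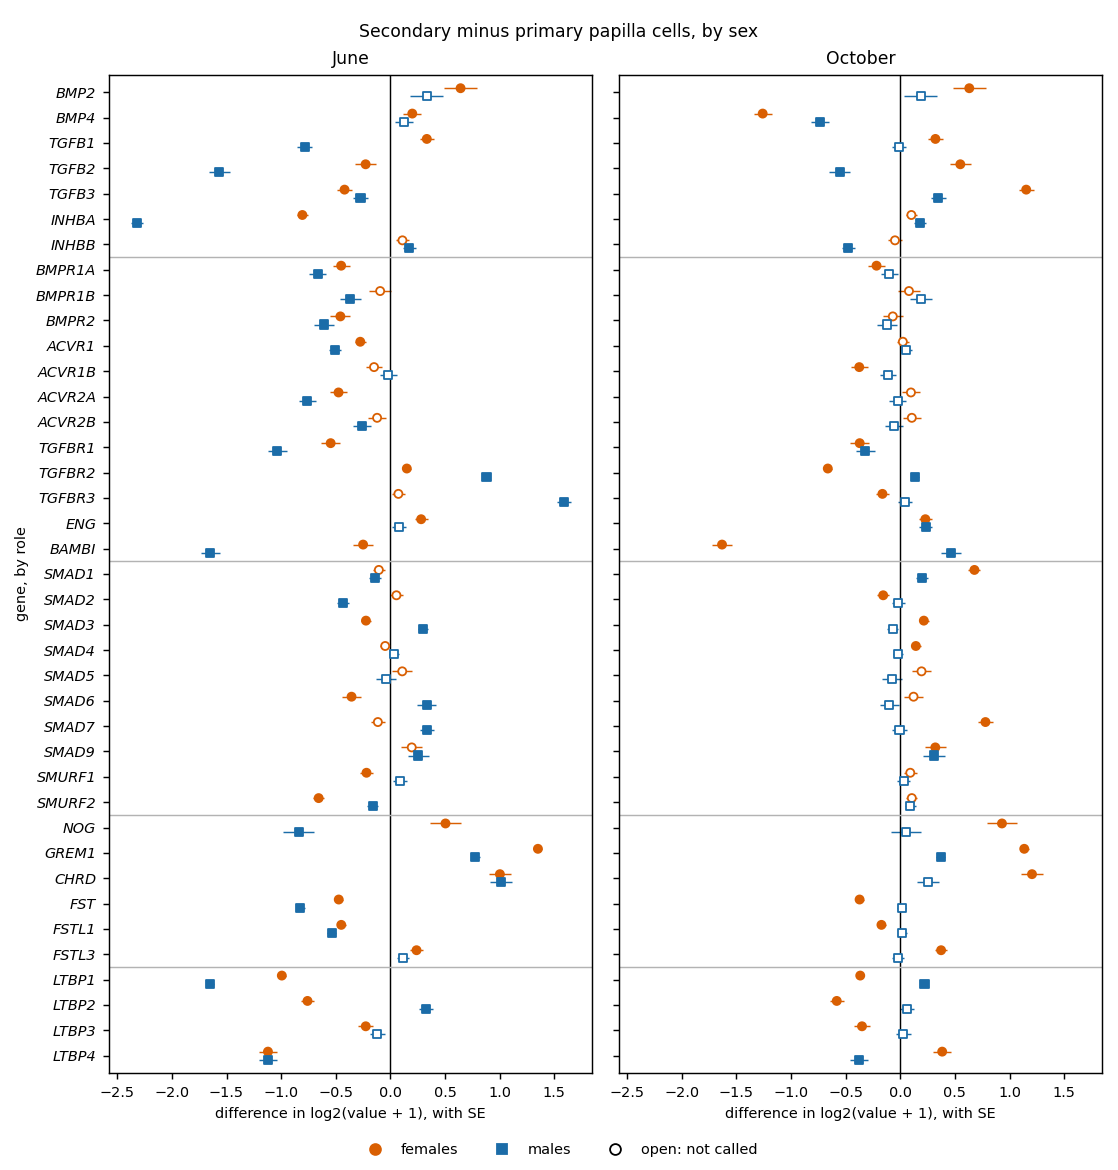
Secondary minus primary papilla cells in June (left) and October (right) for the 39 genes by role, as the difference in log2(value + 1) with its SE, in females (orange circles) and males (blue squares), with filled symbols where the adjusted p was under 0.05. INHBA, TGFB2, BAMBI and LTBP1 are far below 0 in June males, and BAMBI and BMP4 are lowest in October females.

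In June 17 genes were called the same way in both sexes (all genes 27.7%), 14 of them lower and 3 higher in secondary cells, the latter being TGFBR2, GREM1 and CHRD. A further 5 were called in opposite directions (6.87%): TGFB1, SMAD3, SMAD6, NOG and LTBP2. The June difference of LTBP2 was -0.76 for females and 0.33 for males. In October 7 were called the same way (6.75%), with BMP4 and TGFBR1 lower and TGFB3, ENG, SMAD1, SMAD9 and GREM1 higher in secondary cells, and 5 in opposite directions (3.82%): TGFB2, TGFBR2, BAMBI, LTBP1 and LTBP4. The male differences of SMAD1 (0.20), ENG (0.23), SMAD9 (0.31) and TGFBR2 (0.14) were not called once library totals were made equal. Without primary October male 1, SMAD1 was at 0.14 (adjusted p = 0.119), ENG at 0.20 (adjusted p = 0.0513) and SMAD9 at 0.28 (adjusted p = 0.103). Calls in males were also lost without secondary October male 1 for TGFBR1, without secondary October male 2 for SMAD1, and without secondary October male 2 or 3 or primary October male 2 for SMAD9, and in females without secondary October female 1 or primary October female 3 for SMAD9.

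**Figure D4:**
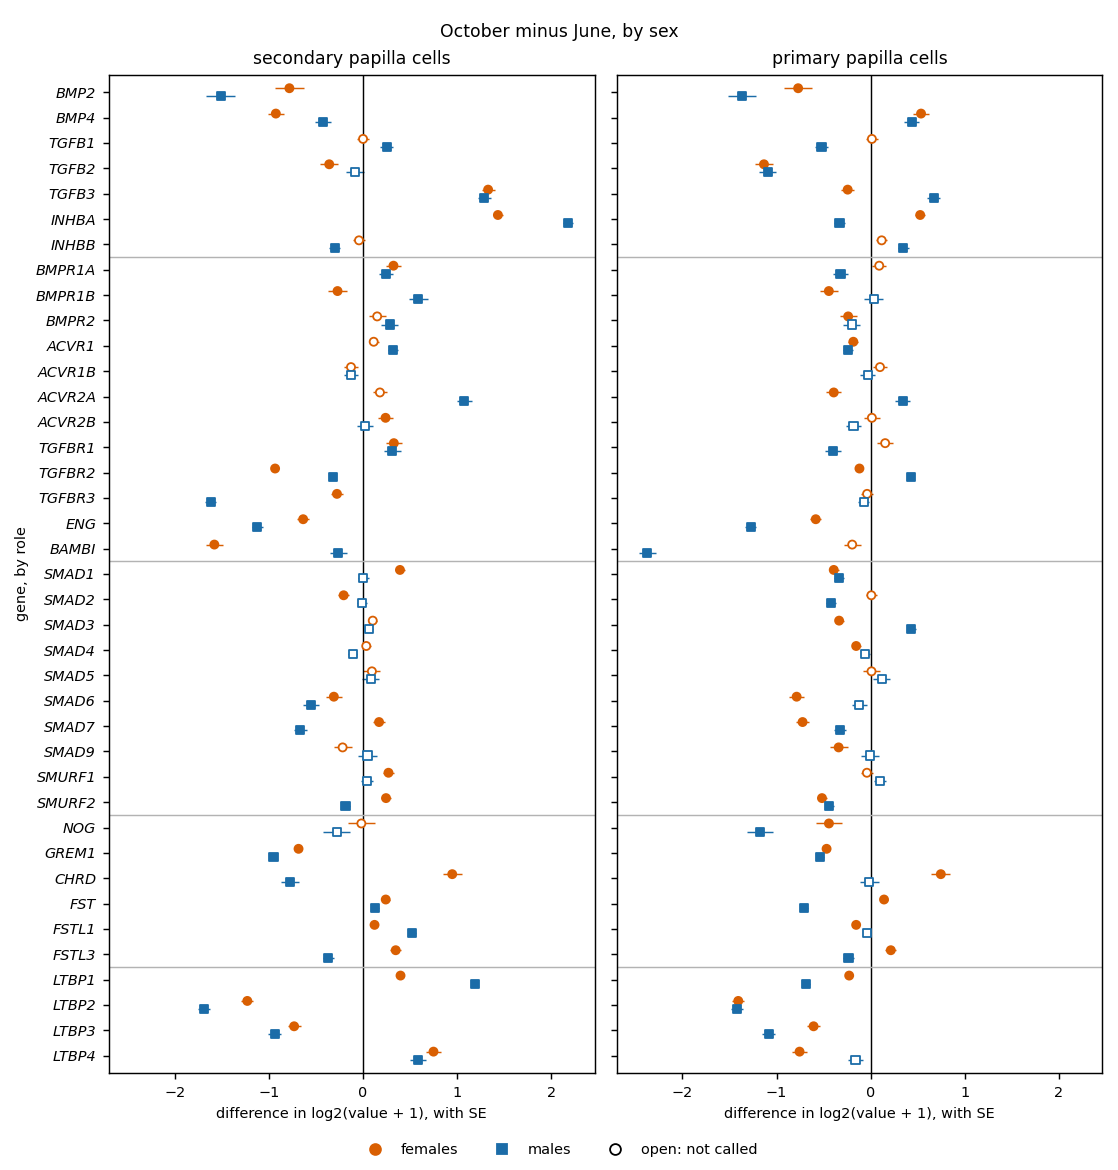
October minus June in secondary (left) and primary (right) papilla cells for the same genes, axes and symbols. BMP2, ENG, LTBP2 and LTBP3 lie below 0 in both panels and both sexes, and BAMBI lies farthest below 0 in primary males.

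Between months, 18 genes were called the same way in both sexes in secondary cells (28.5%), 8 higher and 10 lower in October, and 5 in opposite directions (6.24%): BMPR1B, SMAD7, SMURF2, CHRD and FSTL3. The female call was lost without secondary June female 2 or 3 or secondary October female 2 or 3 for SMAD7 (0.13 to 0.18), and without secondary June female 1 or 2 or secondary October female 2 or 3 for BMPR1B (-0.25 to -0.23). In primary cells 13 were called the same way (26.3%), with BMP4 higher and the other 12 lower, and 7 in opposite directions (6.08%): TGFB3, INHBA, ACVR2A, TGFBR2, SMAD3, FST and FSTL3. Without primary June female 1 the female call of FST was lost (0.11, adjusted p = 0.0732). For TGFB3 in primary cells these were -0.25 for females and 0.67 for males. Counted within a sex, follicle types differed for 28 genes in June females (all genes 49.3%), 30 in June males (59.6%), 28 in October females (35.5%) and 14 in October males (18.5%). Months differed for 28 in secondary females (51.3%), 28 in secondary males (56.5%), 28 in primary females (48.2%) and 26 in primary males (55.5%). With a difference of at least 1.5-fold asked for as well, the averaged comparisons called 11 of the 39 genes in June (all genes 11.4%), 4 in October (3.37%), 14 between months in secondary cells (11.0%) and 7 in primary cells (8.9%).

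Other genes of the pathway were taken as 79 symbols in 5 lists, of which 52 passed the filter. Target genes (11 of 12 tested) were higher in secondary cells in 8 cases and lower in 2 in June (all genes 31.6% and 30.3%), and higher in 8 and lower in 0 in October (17.5% and 14.1%). From June to October 8 fell and 3 rose in secondary cells (33.9% and 29.0%), and 8 fell and 2 rose in primary cells (32.3% and 28.6%). ID1, an inhibitor of differentiation induced by BMP through SMAD1, had group means of 190.5 ± 14.9 and 316 ± 7.69 in secondary June females and males, 61.3 ± 0.698 and 81.1 ± 3.15 in primary ones, and 18.0 to 81.7 in October, with differences between follicle types of 1.78 in June and 0.74 in October. Between June and October ID1 fell by 2.37 in secondary cells and ID4 by 2.58 in primary cells. MSX1, a homeobox target of BMP, differed by 1.14 between follicle types in June, with 28.8 ± 1.28 in secondary June males and 3.81 to 9.46 as a group mean elsewhere. The 2 targets lower in secondary June cells were ID4 (-0.93) and MSX2 (-0.63). In October ID4 was higher in secondary cells by 0.88, and MSX2 was not called (-0.09). From June to October MSX2 rose by 1.32 in secondary and by 0.78 in primary cells.

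Of the other ligands only 6 of 21 were tested. GDF6, a BMP-family ligand, was higher in secondary cells by 1.38 in June and 0.93 in October (adjusted p = 5.86e-18 and 4.9e-14), and highest in secondary June males at 43.1 ± 0.401. GDF15, a stress-induced and more distant member, fell by 1.08 in secondary and by 1.95 in primary cells from June to October (adjusted p = 7.22e-12 and 2.14e-16). Among the other receptors (8 of 9 tested), ACVRL1, the type I receptor best known from blood vessels, had group means of 1.53 to 2.97 in June and of 0.0967 to 0.523 in October, with differences of -1.48 and -1.41 in secondary and primary cells. It passed the filter only through June libraries, with October values of 0.05 to 0.63, so its differences between months are a description. In June 2 of these receptors were higher and 4 lower in secondary cells (all genes 31.6% and 30.3%), ACVR1C by -0.63 and NEO1 by -0.56.

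Secreted regulators and activators (11 of 21 tested) were lower in secondary June cells in 9 cases and higher in 1 (all genes 30.3% and 31.6%). The 9 include ITGB6, which passed the filter only through secondary October females and had June values of 0.08 to 0.49. CRIM1, a membrane protein that binds BMPs, differed by -0.91 in June and -0.56 in October, and ASPN, a small proteoglycan that binds TGF-beta1, by -0.67 in June and 0.18 in October (adjusted p = 0.0347). ITGB6, the beta subunit of an epithelial integrin that activates TGF-beta, had 3.59 ± 0.365 in secondary October females and 0.110 to 0.367 as a group mean elsewhere as the group whose keratinocyte markers were highest, and their part in it was not tested. Intracellular regulators (16 of 16 tested) had 9 lower and 2 higher in secondary June cells, beside the same shares of all genes. LDLRAD4 and PMEPA1 are related membrane proteins that keep SMAD2 and SMAD3 from the receptor. They differed by -1.30 and -1.10 in June (adjusted p = 8.47e-18 and 1.66e-18) and rose by 1.51 and 1.06 from June to October in secondary cells. LDLRAD4 had June means of 6.81 ± 0.284 in secondary females and 9.62 ± 0.358 in primary females. In males they were 5.32 ± 0.526 in secondary and 27.2 ± 1.54 in primary cells. PMEPA1 had June means of 50.2 ± 1.96 in secondary females, 32.0 ± 0.227 in secondary males, 65.8 ± 0.741 in primary females and 115 ± 4.71 in primary males (SD, n = 3), and in October the follicle types differed by -0.04 (adjusted p = 0.37).

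**Figure D5:**
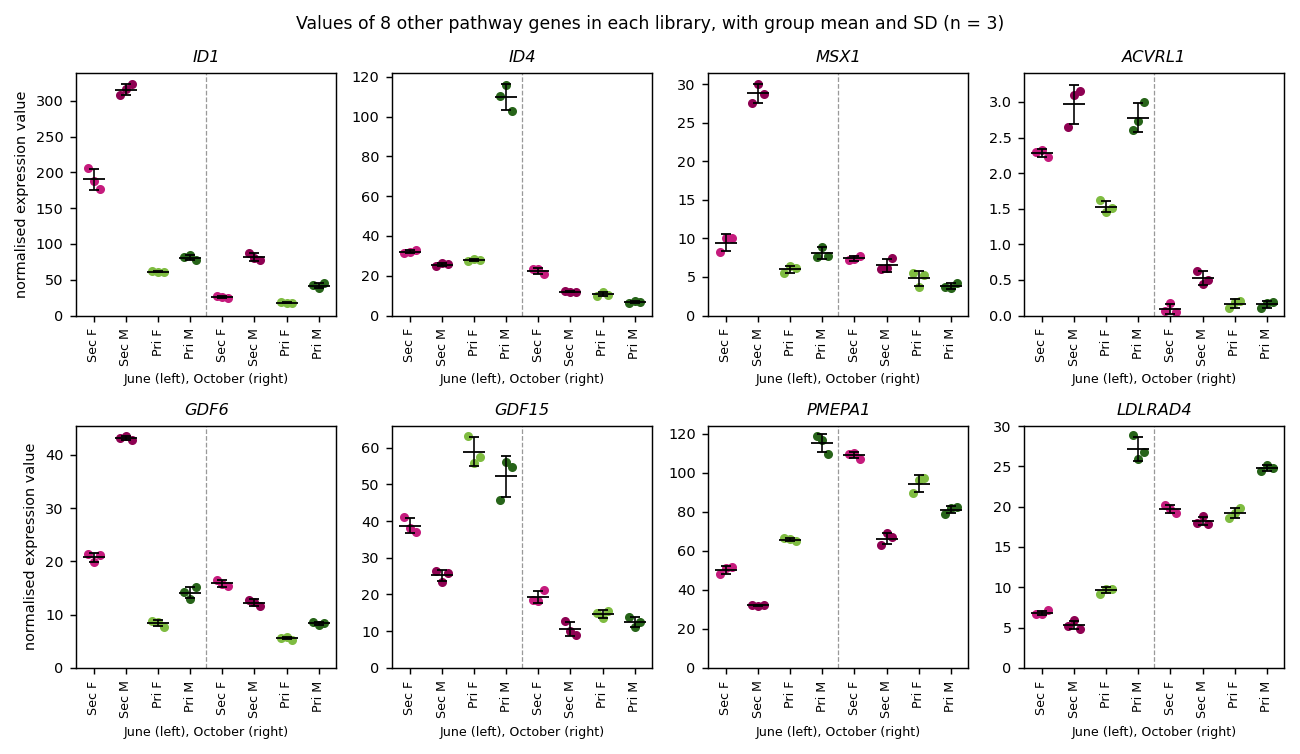
Normalised expression values of 8 of the other pathway genes named in the text, with 4 groups per month (Sec, secondary; Pri, primary; F, female; M, male), points for libraries and bars for the group mean and SD. ID1 and GDF6 are highest in secondary June males, ACVRL1 is below 1 in all October libraries, and PMEPA1 and LDLRAD4 are lowest in secondary June cells.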

How the data were processed

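Expression was measured by RNA sequencing in 24 libraries, 3 in each of 8 groups. Per the labels' protocols, RNAiso Plus served for extraction and the NEBNext Ultra kit for paired-end libraries. The submitters' processing notes name kallisto 0.46.1 and sleuth 0.30.0, with no role or order. The build, the transcript set, filters and depth were not given in the sources used here. Values the authors deposited are a normalised signal, 1 per gene and library, and not counts: library totals run from 959766 to 1045876. Depth behind a value is therefore unknown, no counting interval is given, and precision rests on 3 libraries per group. How shared reads of close paralogs were divided is unknown too.

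A gene entered the tests with a value of 1 or higher in no fewer than 3 libraries. With limma 3.58.1, under R 4.3.3 with statmod 1.5.0, log2(value + 1) was modelled by 8 group means, a variance trend and robust estimation, over all 24 libraries. P-values were adjusted by Benjamini-Hochberg over 13049 genes and called under 0.05. The 18 comparisons were follicle types within month, months within follicle type, their interaction, the sexes, and the same within and between sexes. Averages weight the sexes equally. Values in every library are given for the 4 called genes with the largest difference in each of the 4 averaged comparisons and the one with the largest called sex difference in each. Other pathway genes are named up to 2 per list and comparison. Genes named beyond this rule were chosen by role after their values were seen. The genes and lists were chosen with earlier results of these data known. All 41 listed symbols matched the RefSeq gene table of assembly ARS1.2, used for names only. No sequences are shown. Alternatives are given at the end.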

Additional observations from a re-analysis of the deposited data

Results flagged for a closer look

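Differences between follicle types changed with the month for 26 of the 39 genes, by the test of the interaction. Among the genes described library by library, the interaction was 1.70 for INHBA, 1.25 for LTBP1, 1.12 for LTBP4, 1.10 for TGFB3, 0.89 for TGFB2 and 0.36 for BAMBI, and -1.16 for BMP4, -0.31 for GREM1 and -0.28 for CHRD. The call of CHRD was lost (-0.25 to -0.23, adjusted p = 0.0535 to 0.0563) without primary June female 3, secondary October male 2, primary October female 3 or primary October male 1.

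Follicle types differed by sex for 20 genes in June, as the male minus the female difference: -1.52 for INHBA, -1.40 for BAMBI, -1.34 for TGFB2, -0.66 for LTBP1, -0.57 for GREM1 and 1.09 for LTBP2. In October there were 20 such genes, with 2.10 for BAMBI, 0.64 for LTBP2, 0.59 for LTBP1 and 0.52 for BMP4, and -1.10 for TGFB2, -0.95 for CHRD, -0.81 for TGFB3, -0.76 for GREM1 and -0.76 for LTBP4.

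Months differed by sex for 22 genes in secondary cells, with 1.32 for BAMBI, 0.79 for LTBP1, 0.74 for INHBA and 0.50 for BMP4, and -1.72 for CHRD, -0.73 for BMP2, -0.46 for LTBP2 and -0.27 for GREM1. In primary cells there were 23, with 0.91 for TGFB3 and 0.59 for LTBP4, and -2.18 for BAMBI, -0.86 for INHBA, -0.76 for CHRD, -0.60 for BMP2 and -0.46 for LTBP1. BMP2 there was not called with no filter on low genes (adjusted p = 0.0739), nor without any 1 of 8 of the 12 primary libraries (-0.59 to -0.50, adjusted p = 0.0521 to 0.0929), namely June female 1 or 2, June male 1 or 3, October female 2 or 3, or October male 1 or 2. Within 1 month and sex a group is 3 libraries of unstated origin, so sex and what else those libraries share cannot be told apart.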

How the results depend on the processing

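No difference of any of the 39 genes changed sign while called under the alternatives: no filter, a filter of 6 libraries, a pseudocount of 0.1, equal library totals, median-of-ratios factors, a spread not estimated robustly, the compared groups alone, a replicate block, and each library left out. In the 4 averaged comparisons, leaving out 1 library ended a call in 89 of 3744 fits of a gene, none with a difference over 0.207 in size, and made one in 16. The 89 fell on 12 pairs of a gene and a comparison. The 3744 include genes not called with all libraries, and libraries outside the compared groups, so 89 of 3744 understates how often a call was lost. Counts of called genes with 1 library left out ran from 31 to 33 in June, 22 to 25 in October, 27 to 31 between months in secondary and in primary cells, 24 to 26 in the interaction and 28 to 29 between sexes. LTBP1 in October (-0.07, adjusted p = 0.0253) was not called in the compared groups alone (adjusted p = 0.107), nor without secondary October female 3, secondary October male 1, or primary October male 1 or 2 (adjusted p = 0.0512 to 0.0659).

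Counts moved by over 1.5 times under 2 settings. Asking for a difference of at least 1.5-fold as well left 11 of 32 genes in June, 4 of 25 in October, 14 of 30 between months in secondary cells, 7 of 29 in primary cells, 10 of 26 in the interaction and 4 of 28 between sexes. Sex differences fell to 10 of 20 in June, 11 of 20 in October, 11 of 22 between months in secondary and 12 of 23 in primary cells. Within females and males it left 8 and 16 in June, 10 and 1 in October, 12 and 13 between months in secondary cells, and 8 and 10 in primary cells. The 8 group means as samples left 2 genes in June and 0 in October, in both comparisons of months, in the interaction and between sexes, with fewer samples by construction.

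Deviations from the group means correlated at -0.281 to 0.348 between same-numbered libraries of different groups. Their median was 0.034, against a median of -0.017 for different numbers. With 3 libraries per group this cannot exclude that the numbers pair some libraries, and the labels do not say what they mean. With the replicate block 32, 25, 30 and 30 genes were called in the 4 averaged comparisons; the added call was TGFBR1 between months in primary cells (-0.12, adjusted p = 0.048, against 0.0841).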
